A study of Mus musculus with 17 samples.

Results

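Cells with counts of the type 17 cytokines Il17a, Il17f or Il22 were examined in a single-cell library of mouse skin innate lymphoid cells (ILC). A cell was kept with at least 200 detected genes and under 10% of its counts in mitochondrial genes, and it was a member when the 3 cytokine counts added up to 1 or more. By this rule 418 of 4106 kept cells were members (10.2%, exact 95% binomial interval 9.27 to 11.1%), against 3688 cells in which all 3 genes were at 0. Before this filter, the whole series listed 5462 cells in 3 single-cell libraries. Members were further divided by the summed counts of Cd3d and Cd3e, which encode parts of the CD3 complex that T cells carry with their antigen receptor. A sum of 2 or more defined CD3-high cells, and 27 members were CD3-high and 391 CD3-low. Because members were chosen by their own cytokine counts, all differences between members and other cells of this library are descriptions without a test.

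The series profiled ILC from the skin of C57BL/6 background mice, and its stated aims were to find skin ILC subgroups and genes that differ with a fate-map reporter or with loss of Gata3. Of its 17 samples, 3 were single-cell libraries, namely the skin library and 2 from dorsal skin, taken before (day 0) and 10 days after depilation, each a single library and therefore no replicate. The other 14 were bulk libraries of live cells sorted as lineage negative, γδTCR negative and CD90 positive. Reporter-positive (fm_pos, n = 2) and reporter-negative (fm_neg, n = 2) cells came from fate-map mice. The same sorts from fate-map mice labelled as also carrying a Gata3 deletion gave fm_pos_Gata3flox (n = 3) and fm_neg_Gata3flox (n = 3). Wild-type C57BL/6 mice (WT, n = 2) and Gata3fl/fl CreERT2 mice (Gata3KO, n = 2) had all received 3 intraperitoneal injections of 5 mg tamoxifen in corn oil, the drug that activates the inducible Cre recombinase. The labels give no age, no body site for the skin library, no driver for the Gata3 deletion in the fate-map mice, and no statement that replicates came from separate animals. The p-values below therefore measure only the spread between these samples, which may be technical.

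IL-17A and IL-17F are related secreted cytokines that act on a shared receptor of epithelial and stromal cells, and IL-22 acts on epithelial cells through a different receptor. In skin they are made by type 3 ILC, by γδ T cells of the dermis and by some αβ T cells, and they drive antimicrobial and repair programmes of keratinocytes. IL-23 and IL-1, sensed through Il23r and Il1r1, are the classic signals that raise their production. Type 2 ILC (ILC2), the most common ILC of mouse skin, depend on the transcription factor Gata3 and make Il5 and Il13 in place of these cytokines.

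The sequence upstream of each start site is shown because these 3 transcripts define the members and 2 of them, Il17a and Il17f, are neighbours on chromosome 1. All 3 were taken from RefSeq on GRCm38.p6 and printed 5′ to 3′ on the gene's strand up to the first annotated exon base, with searched motifs that were present in capitals. The Il17a stretch lies at chr1:20730655-20730904 on the plus strand and ends 1 base before the start site. The Il17f stretch lies at chr1:20784271-20784494 on the minus strand, ends 1 base before the start site, and falls between exons of a longer Il17f transcript. The Il22 stretch lies at chr10:118204714-118204941 on the plus strand and ends 23 bases before the RefSeq start site, since a GENCODE exon begins after it.
Il17a: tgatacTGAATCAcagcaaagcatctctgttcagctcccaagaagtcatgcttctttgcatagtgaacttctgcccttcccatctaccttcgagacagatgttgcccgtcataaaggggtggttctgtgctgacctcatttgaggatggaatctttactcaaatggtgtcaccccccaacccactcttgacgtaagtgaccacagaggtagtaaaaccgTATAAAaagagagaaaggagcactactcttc
Il17f: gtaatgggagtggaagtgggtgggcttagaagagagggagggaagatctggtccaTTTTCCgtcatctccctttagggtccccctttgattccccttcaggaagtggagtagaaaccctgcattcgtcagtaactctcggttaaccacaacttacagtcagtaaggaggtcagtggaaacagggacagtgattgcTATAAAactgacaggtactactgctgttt
Il22: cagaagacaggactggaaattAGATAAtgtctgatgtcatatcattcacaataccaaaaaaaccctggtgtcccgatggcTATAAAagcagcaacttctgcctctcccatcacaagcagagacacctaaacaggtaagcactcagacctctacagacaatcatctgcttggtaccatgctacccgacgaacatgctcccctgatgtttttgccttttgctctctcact

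Short motifs were searched on both strands. These were the core promoter element TATAAA, the AP-1 site TGANTCA and the STAT site TTCNNNGAA. The NFAT core GGAAAA and the GATA factor site AGATAA were also searched. TATAAA stood 31 to 26 bases before the Il17a start site and 29 to 24 bases before that of Il17f. In Il22 the same letters stood 170 to 165 bases before the RefSeq start site. Windows of matching length upstream of RefSeq genes held TATAAA in 12.4% (250 bases), 11.1% (224 bases) and 11.6% (228 bases) of 32851 promoters. TGANTCA occurred in the Il17a stretch (6.75% of promoters), GGAAAA on the reverse strand of the Il17f stretch (18.3%) and AGATAA in the Il22 stretch (9.43%). TTCNNNGAA was in none of the 3, against 7.02% of all 250-base windows. These are matches of letters in short windows, and no binding was measured here.

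The 3 single-cell libraries differed in size. The skin library listed 34943 genes and 4444 cells, of which 4106 were kept with 10251255 counts in all and a median of 2358 counts per cell. Dorsal day 0 held 564 cells (median 2001 counts) and dorsal day 10 held 454 cells (median 1826 counts), and 4 cell names were shared between the skin and day 0 libraries. A doublet caller marked 3 of the 4106 skin cells and none of the members. The sort removed cells bearing γδTCR in the bulk libraries, yet the constant-region transcript Trdc was present in the skin library, as described below, and Gata3 was counted in 326 of the 418 members and in 2936 of the 3688 negative cells. ILC carry no CD3 complex, so CD3-high cells go against the library's label. Bulk libraries held 14450612 to 44098274 counts (fate-map) and 14529540 to 24576339 counts (tamoxifen).

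Most members owed their place to a single count of Il22. Il22 was counted in 351 cells (496 counts), Il17a in 49 cells (177 counts) and Il17f in 35 cells (104 counts). Of the 418 members, 328 had a cytokine sum of 1, just inside the rule, and 90 had 2 or more. Only 23 members reached 5 or more, and the highest held 51. For Il22, 301 of the 351 cells had 1 count and the top 5 cells held 14.7% of all its counts. The Il17 transcripts were far more concentrated. The 5 cells with most Il17a held 44.6% of its counts, and the 5 with most Il17f held 56.7%.

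**Figure D1:**
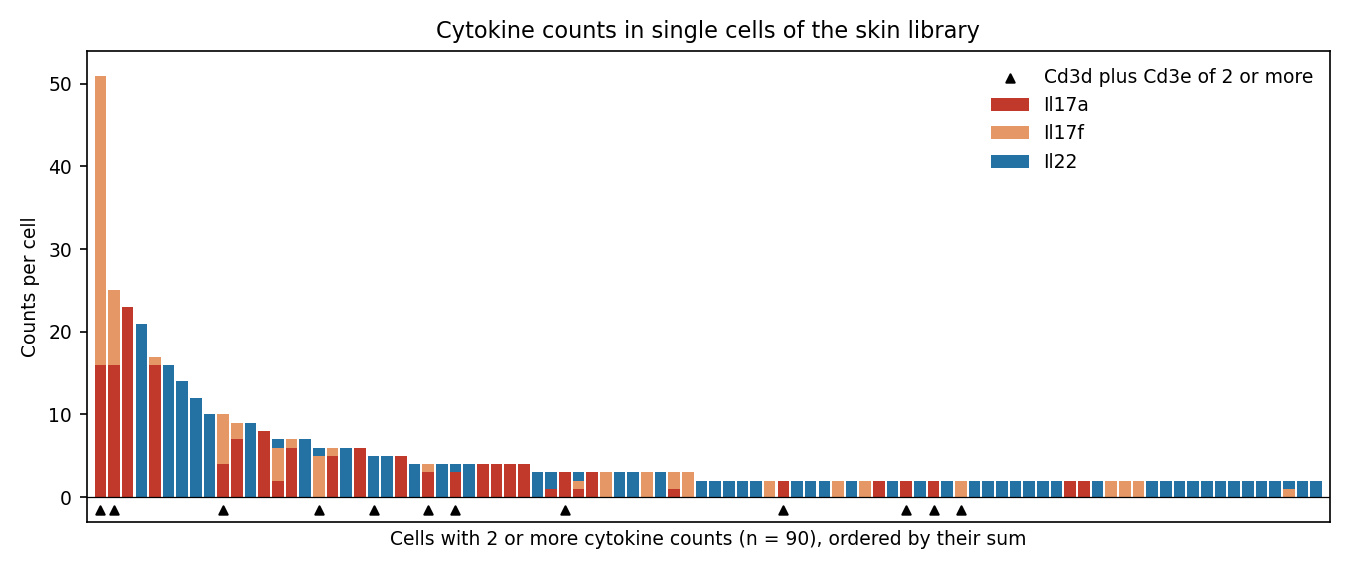
Counts of Il17a, Il17f and Il22 per cell (y axis, stacked bars) in the 90 skin library cells with 2 or more cytokine counts. Cells are ordered by their sum (x axis), and triangles mark those with Cd3d plus Cd3e of 2 or more. Il17a reaches 23 counts in 1 cell and Il17f reaches 35 counts in another. The 328 members with a cytokine sum of 1 are not drawn.

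The cells with most cytokine counts held either Il17 transcripts or Il22, not both. The highest member held 16 Il17a and 35 Il17f counts of 3674 in all, with 2 CD3 counts and 2 Gata3 counts. The next held 16 Il17a and 9 Il17f counts, again with 2 CD3 counts and with no Gata3 count. Rank 3 held 23 Il17a counts, no CD3 count and 5 Gata3 counts, and rank 5 held 16 Il17a counts, 1 Il17f count and 16 Gata3 counts. Cells with Il22 at 21, 16, 14, 12 and 10 counts took ranks 4, 6, 7, 8 and 9, and none of these held an Il17a or Il17f count. The most cytokine-rich cells thus included CD3-bearing cells and CD3-free, Gata3-bearing cells.

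Il17a cells often held Il17f too, whereas the share of cells with Il22 was close with and without Il17 counts. Il17f was counted in 11 of the 49 Il17a cells (22.4%, 11.8 to 36.6%) and in 24 of the 4057 cells without Il17a (0.592%). Il22 was counted in 6 of the 73 cells with Il17a or Il17f (8.22%, 3.08 to 17.04%) and in 345 of the 4033 cells without them (8.55%). These 73 cells are called Il17 cells here, and the 345 cells with Il22 alone are called Il22-only cells. Of the Il17 cells, 36 held Il17a only, 22 held Il17f only, 9 held both, and the other 6 also held Il22. The median depth was alike, with 2612 counts per Il17 cell, 2579 per Il22-only cell and 2334 per cytokine-negative cell.

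Il22 counts were spread across the library, and the share of cells with Il17 counts differed between clusters. The kept cells were clustered with the 3 cytokines, Cd3d and Cd3e left out. Cluster 4 (270 cells) was led by Ifi202b, Plet1, Trgc2, Serpinb2, Klrc1, Cd40lg and Blk, and was left without a cell type name. It held 34 of the 73 Il17 cells (46.6%), which was 12.6% of its cells (8.88 to 17.2%), and 84 of the library's CD3-high cells. Cluster 1, the largest with 1816 cells, held 28 of the Il17 cells (38.4% of them), at a share of 1.54% of its cells (1.03 to 2.22%). Cluster 6, 26 cells led by Tff1, Penk and Il1r2, held 3 Il17 cells, a share of 11.5% (2.45 to 30.15%) whose interval spanned that of cluster 4. Cluster 2, led by heat-shock genes and Il2, had 0.337% (0.109 to 0.784%), and cluster 3, led by the ILC2 genes Il1rl1, Klrg1, Arg1 and Il5, had 0.680% (0.140 to 1.98%). With every cell thinned to 1000 counts, the Il17a share was 6.06% in cluster 4, 0.341% in cluster 1, 0.0719% in cluster 2, 0.461% in cluster 3 and 7.69% in cluster 6.

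Il22 shares lay closer together. They were 8.42% in cluster 1, 7.88% in cluster 2, 8.84% in cluster 3 and 11.5% in cluster 4 (7.94 to 15.9%). Cluster 5, 54 cells led by macrophage genes such as C1qc, Lyz2 and Csf1r, held Il22 in 9 cells (16.7%, 7.92 to 29.3%) against 342 of the 4052 cells outside it (8.44%, 7.60 to 9.34%). Their median depths were 2677 and 2356 counts. Thinned, the shares were 5.77% (1.21 to 15.95%) and 3.96% (3.37 to 4.62%). With 54 cells, the interval of cluster 5 was wide and overlapped those of the lymphoid clusters, so no order between them is read. Whether a single Il22 count marks an expressing cell was not tested, and the share is not read here as a share of expressing cells. Beside this, Il23r stood at 0.189 counts per 10000 in cells with 1 Il22 count and at 0.0776 in CD3-low negative cells. Il17a and Il17f were absent from all 54 cells of cluster 5, with an exact 95% upper limit of 6.60%. Counts of 2 or more Il22 were found in 9 cells of cluster 4 (3.33%, 1.53 to 6.23%), 13 of cluster 1 (0.716%, 0.382 to 1.22%) and 2 of cluster 5 (3.70%, 0.452 to 12.7%). By this stricter count, too, the interval of cluster 5 overlapped those of clusters 1 and 4, and 2 cells are too few to order them.

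**Figure D2:**
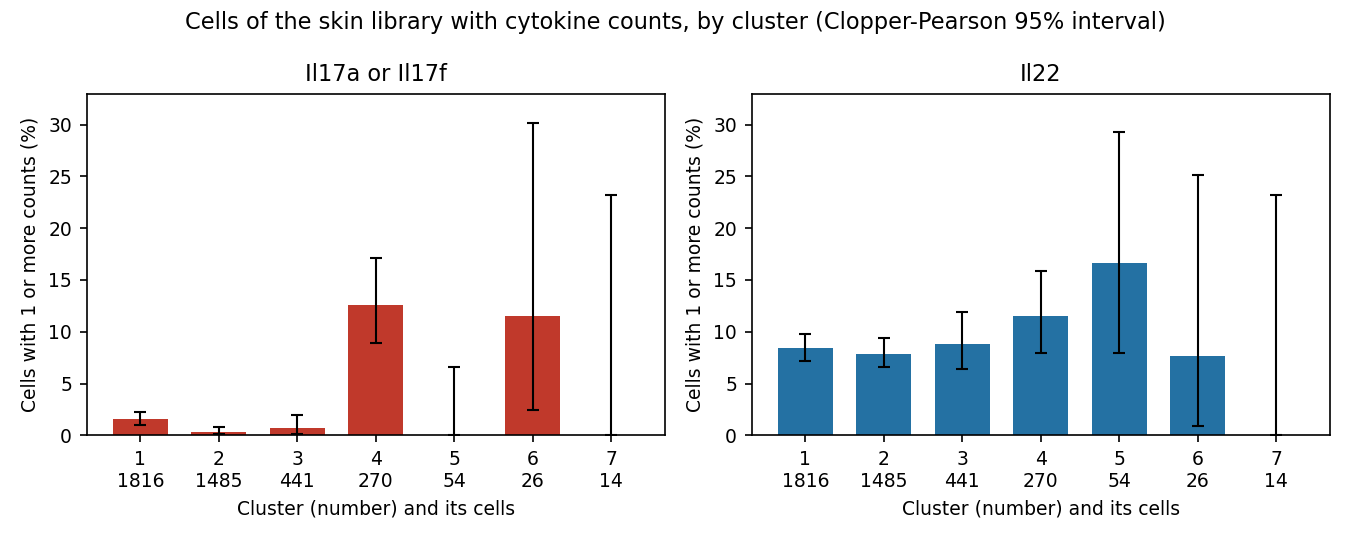
Percent of cells with a count of Il17a or Il17f and of Il22 in each of the 7 clusters of the skin library, with exact 95% binomial intervals. The Il17 share is 12.6% in cluster 4 and 1.54% in cluster 1, while the Il22 share of the macrophage-gene cluster 5, 16.7%, is no lower than that of the lymphoid clusters.

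Il23r and Il1r1, receptors of the inducing cytokines, were the clearest partners of the 3 cytokines at the level of the class, although most members held no count of either. Levels here are summed counts per 10000 counts of a class, without the 3 cytokines, and a ratio is reported with an exact 95% interval that covers counting error only. Il23r stood at 0.365 in members and 0.0813 in negative cells, a ratio of 4.49 (3.00 to 6.65). Il1r1 stood at 0.400 and 0.119, a ratio of 3.37 (2.34 to 4.80). Both were higher at each step of the cytokine count. Il23r was 0.0813, 0.227, 0.605 and 1.46 in cells with a cytokine sum of 0, of 1, of 2 to 4 and of 5 or more, and Il1r1 was 0.119, 0.204, 0.655 and 2.19. Gata3 moved slightly the other way, at 17.1, 16.4, 14.6 and 11.8. The share of CD3-high cells was 2.09%, 4.57%, 10.4% and 21.7% across the same steps.

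Across all genes few ratios were large. Of 7855 genes with at least 100 summed counts, 39 were higher in members by 2-fold or more (0.496%) and 66 were lower (0.840%). Here and in all later counts of genes a ratio of 2 or 0.5 decided, whatever its interval. Besides the receptors, the higher genes with the largest ratios included the γ-chain constant gene Trgc2 at 2.92 (1.87 to 4.46), the Src-family kinase Blk at 2.71 (1.93 to 3.76), the transcription factor Zbtb16 at 2.68 (1.83 to 3.87), which marks innate-like lymphocytes, and Trdc, the TCRδ constant gene, at 2.62 (2.11 to 3.22). Several other high ratios rested on 1 cell. Timp3, an inhibitor of matrix proteases, had a ratio of 7.65 with 42 of its 57 member counts in 1 cell and 2.02 without that cell. The decoy receptor gene Il1r2 went from 3.15 to 2.13 without its top cell, and Il4 from 3.23 to 1.67. The myeloid genes Cybb and Ms4a6c and the lymphoid factor gene Pou2f2 stood at 2.64, 2.67 and 2.77, and at 0.254, 0 and 0.685 without cluster 5.

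Genes lower in members included B cell genes. The B cell receptor gene Cd79a had 0 counts in members and 154 in negative cells, which puts it at least 6.48-fold lower at a limit of 3 counts for the class. The immunoglobulin gene Ighm had a ratio of 0.290 (0.143 to 0.527). The small heat-shock gene Hspb1 stood at 0.137 (0.0163 to 0.504) and the metallothionein gene Mt1 at 0.225 (0.0722 to 0.535). Ifi202b had 0 counts in members and 114 in negative cells (at least 4.80-fold lower), and Serpinb2 3 against 177 counts (0.134, 0.0274 to 0.399), but 1 negative cell of cluster 4 held 110 of those Ifi202b counts and 1 held 150 of those Serpinb2 counts. The remaining lowest ratios were those of Iglon5 (0.251), Fam83d (0.268), Zfp579 (0.284), Mettl6 (0.312) and Tsnax (0.315), each counted in 4 to 8 members. Of 10 heat-shock genes with at least 50 summed counts only Hspb1 was 2-fold lower, and the list median was 0.975.

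Most genes of the type 17 and ILC2 programmes did not differ by 2-fold. Among genes with at least 50 summed counts, 1.16% of all 9664 were 2-fold higher and 2.48% were 2-fold lower in members, and the median ratio was 1.01. Of the cytokine receptor and signal list, 2 of 17 genes were higher (Il23r and Il1r1) and none was lower, with a median ratio of 1.12. Of the type 17 regulators, 1 of 12 was higher (Zbtb16, median 1.03), and of other type 17 associated genes 1 of 15 (Blk, median 1.13). Of the ILC2 genes, 1 of 19 was higher (Il4, median 0.974), and Gata3 stood at 15.8 in members and 17.1 in negative cells, a ratio of 0.924 (0.879 to 0.970). The epidermal growth factor family gene Areg stood at 2.91 and 4.32, a ratio of 0.672 (0.599 to 0.752). Of the γδ T cell list 4 of 8 were higher (Trdc, Trgc1, Trgc2 and Blk, median 1.85), and of the αβ T cell list 2 of 10 (Cd40lg and Ctla4, median 1.10). Of the B cell list 4 of 5 were lower (median 0.290), which rests on the few cells with B cell genes described above.

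**Figure D3:**
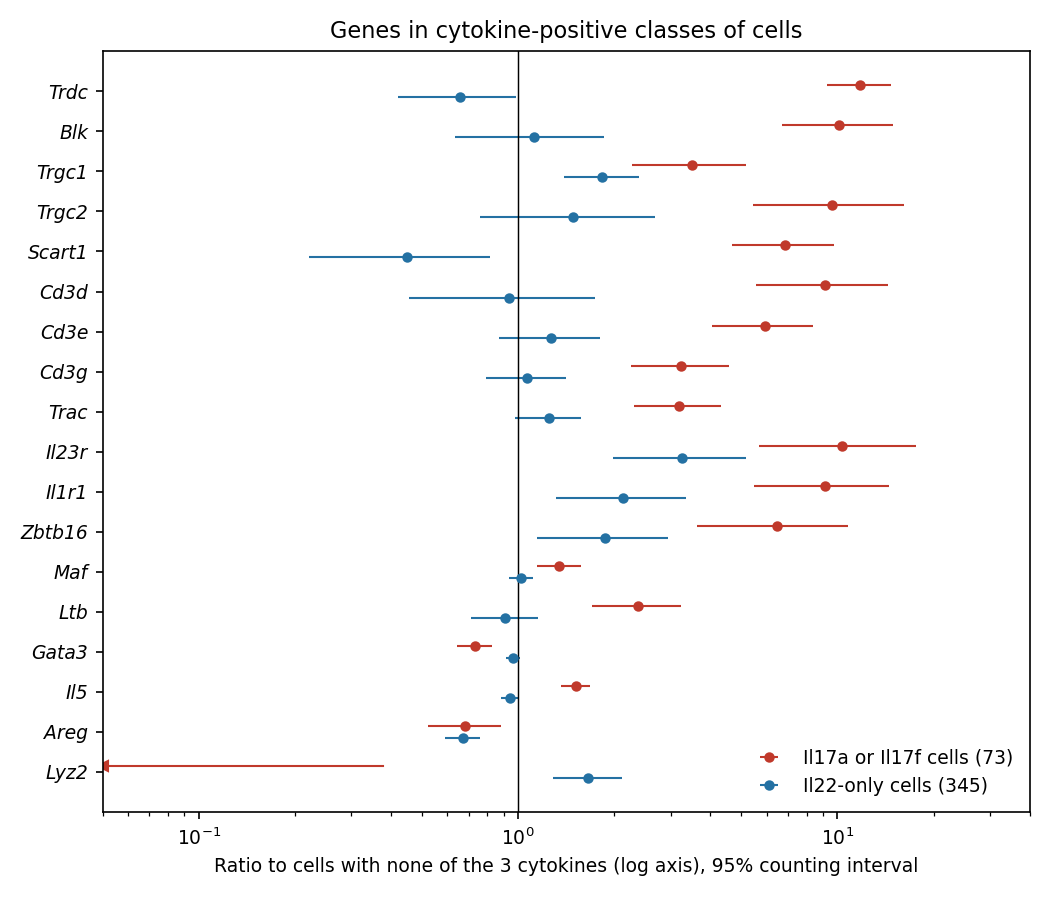
Ratio of summed counts per 10000 over cytokine-negative cells (x axis, log scale) for named genes in Il17 cells and in Il22-only cells, with exact 95% counting intervals. Il23r and Il1r1 lie above 2 in both classes, whereas Trdc is at 11.8 in Il17 cells and 0.657 in Il22-only cells.

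Il17 cells and Il22-only cells differed in the T cell receptor genes. Trdc was 4.73 in Il17 cells and 0.402 in negative cells, a ratio of 11.8 (9.29 to 14.8), and 8.94 without the cell with most of it. In Il22-only cells its ratio was 0.657 (0.420 to 0.986). Blk stood at a ratio of 10.1 (6.72 to 14.9) in Il17 cells and 1.12 (0.635 to 1.86) in Il22-only cells. Cd3e stood at 5.91 (4.06 to 8.39) and 1.27 (0.870 to 1.80), and Scart1, a scavenger receptor gene of γδ T cells that make IL-17, at 6.84 (4.68 to 9.74) and 0.448 (0.221 to 0.817). The checkpoint receptor gene Pdcd1 stood at 7.64 (5.27 to 10.8) and 1.08 (0.683 to 1.63). By contrast Il23r was above negative cells in both, at 10.3 (5.70 to 17.6) and 3.25 (1.98 to 5.18), as was Il1r1 at 9.13 (5.50 to 14.5) and 2.14 (1.31 to 3.35).

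The background differed with class size. In the 73 Il17 cells 5.33% of 9441 genes were 2-fold higher and 18.5% were 2-fold lower, with a median ratio of 0.906, and in the 345 Il22-only cells 1.45% and 2.98% of 9630 genes, with a median of 1.01. Against this, 5 of 8 γδ T cell genes were higher in Il17 cells (list median 5.17) and 0 of 8 in Il22-only cells (median 1.08). Of the CD3 complex genes, 3 of 4 were higher in Il17 cells (Cd3d, Cd3e and Cd3g) and 0 of 4 in Il22-only cells. Of the αβ T cell list, 3 of 10 were higher in Il17 cells (Trac, Cd40lg and Ctla4). Of the ILC2 list, 6 of 19 were lower in Il17 cells (Il4, Il9r, Pparg, Arg1, Il10ra and Ptgir) and 1 was higher (Calca). Il22-only cells had 1 higher (Il4) and 1 lower (Klrg1) of the same 19. The macrophage genes Csf1r and C1qb were higher in Il22-only cells, at 2.36 (1.52 to 3.57) and 2.58 (1.45 to 4.40), and at 0 counts in Il17 cells.

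As a class, Il17 cells with few CD3 counts also had γδ T cell genes at higher levels. The 57 Il17 cells that were CD3-low were set against the 3611 CD3-low negative cells, a comparison in which 6.27% of 9367 genes were 2-fold higher and 21.0% lower. Trdc stood at 1.77 and 0.335, a ratio of 5.30 (3.43 to 7.86), with 12 of its 27 counts in 1 cell and a ratio of 2.99 without it. Blk had a ratio of 9.65 (5.51 to 15.98), Trgc2 10.1 (4.59 to 19.9), Il23r 8.47 (3.89 to 16.5) and Pdcd1 7.34 (4.64 to 11.2). Of the 57 cells, 10 held a Blk count, 9 Trdc, 6 Il23r and 4 Trgc2, so these ratios do not describe each cell. Cd3e, at a ratio of 7.31 (3.52 to 13.7), was still higher below the limit of 2 counts, and 15 of the 57 cells had 1 count of Cd3d or Cd3e. Il5 stood at 22.9 and 12.2, a ratio of 1.88 (1.68 to 2.09), and Gata3 at 15.5 and 17.4, a ratio of 0.894 (0.783 to 1.02).

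Il17 cells in cluster 4 and outside it held different genes, a split chosen after the values were seen. The clusters were formed from the expression of these same cells, and Trgc2 and Blk were among the genes that led cluster 4. Differences in such genes between cells inside and outside it are therefore partly set by the clustering and are a description only. The 34 Il17 cells of cluster 4 had Gata3 at 3.41, Il5 at 2.24, Trdc at 9.70 and Il23r at 1.81. The 39 Il17 cells elsewhere had Gata3 at 20.3, Il5 at 31.7 and Trdc at 0.458, and no Il23r, Cd3d, Trgc2 or Zbtb16 count. In CD3-low negative cells these genes were also near the floor, at 0.0776, 0.0439, 0.065 and 0.115. In a class of 39 cells their absence is therefore not read as a difference from negative cells. Outside cluster 4, 8.01% of 9235 genes were 2-fold higher in Il17 cells than in negative cells and 23.9% lower, with a median ratio of 0.916. Of 19 ILC2 genes there, 3 were higher (Klrg1, Il5 and Calca) and 3 lower (Il4, Arg1 and Il10ra), with a list median of 1.07. In the same comparison Gata3 had a ratio of 1.13 (0.988 to 1.29) and Il5 of 2.51 (2.24 to 2.79), with 73 of 346 Il5 counts in 1 cell and 2.08 without it.

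Within cluster 4 the Il17 cells still differed from the cytokine-negative cells beside them. There 1.80% of 2394 genes were 2-fold higher and 9.02% lower, with a median ratio of 0.979. Trdc had a ratio of 3.77 (2.87 to 4.94), Scart1 2.40 (1.55 to 3.64), Il1r1 2.67 (1.51 to 4.55) and Pdcd1 2.497 (1.46 to 4.13), and the ratio of Il23r, with 48 counts in all, was 3.27 (1.70 to 6.10). Of the cytotoxic and type 1 ILC list, 5 of 7 genes were lower in the Il17 cells of the cluster (Gzma, Gzmb, Xcl1, Ccl5 and Nkg7), with a list median of 0.205. Outside the cluster Pdcd1 was also higher, at 6.99 (3.82 to 11.9). Trdc outside had 5 counts in Il17 cells, a ratio of 1.76 (0.567 to 4.17).

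As a class, the 49 cells with 2 or more Il22 counts and no Il17 count had high Il23r, counted in 8 of them, beside Gata3 at the level of negative cells. Here 10.0% of 9447 genes were 2-fold higher than in negative cells and 15.5% lower. Il23r had a ratio of 8.06 (3.71 to 15.7), Trgc1 6.20 (4.27 to 8.76), Tmem176b, a membrane protein gene of type 17 lymphocytes, 2.92 (2.19 to 3.82), and Il12rb1, which encodes the other chain of the IL-23 receptor, 5.68 (2.01 to 13.1). Trdc was at 3 counts (0.489, 0.100 to 1.44) and Cd3d at 0. Gata3 was at 17.7 and 17.1, a ratio of 1.03 (0.913 to 1.17). The IL-4 gene Il4 owed 15 of 16 counts to 1 cell. Of 6 macrophage genes 5 were higher, among them Lyz2, whose 64 counts all lay in 1 cell. Their part in the result was not tested.

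**Figure D4:**
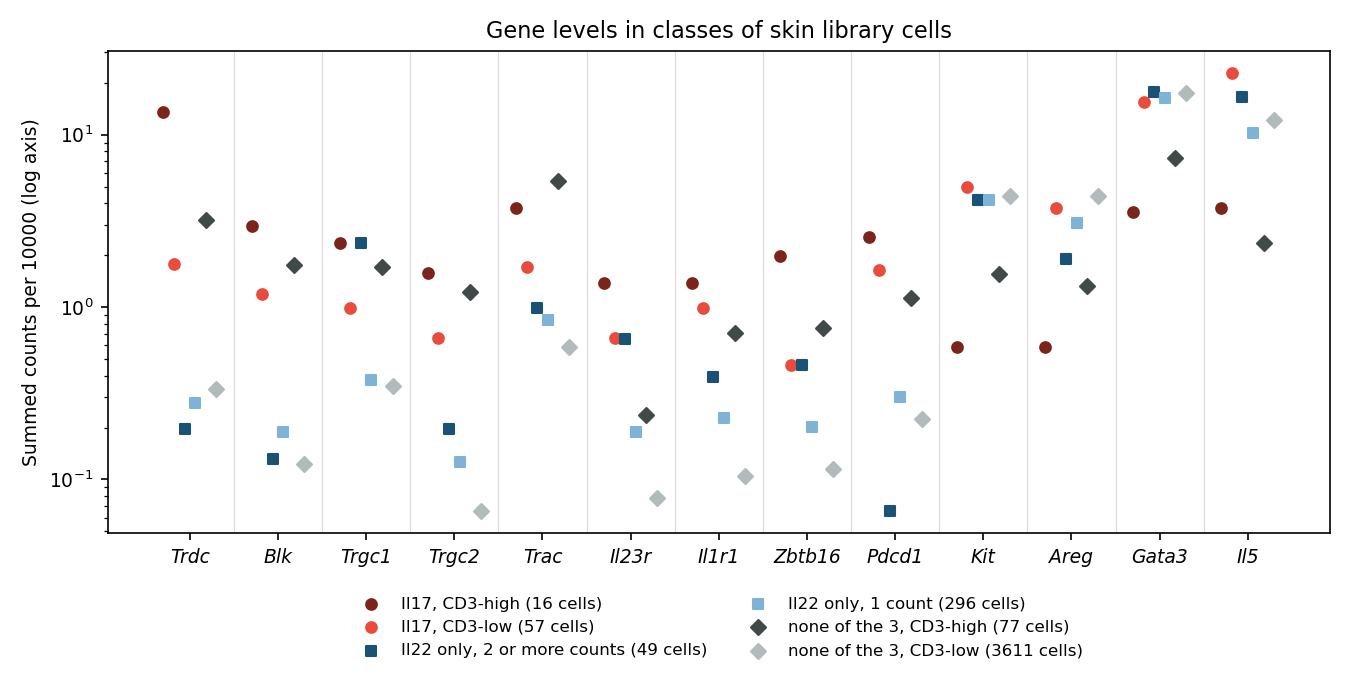
Level of named genes in summed counts per 10000 (y axis, log scale) in 6 classes of skin library cells, divided by Il17 counts, Il22 counts and CD3 counts. Trdc is highest in CD3-high Il17 cells at 13.5, and Gata3 is lowest there at 3.53.

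CD3-high cells were more frequent among members, at 27 of 418 (6.46%, 4.30 to 9.26%) against 77 of 3688 (2.09%, 1.65 to 2.60%). Thinned to 1000 counts, where few cytokine counts remained, the shares were 4 of 195 (2.05%, 0.562 to 5.17%) and 37 of 3743 (0.989%, 0.697 to 1.36%), and the intervals overlapped. The excess lay in the Il17 cells, of which 16 of 73 were CD3-high (21.9%, 13.1 to 33.1%), against 11 of 345 Il22-only cells (3.19%, 1.60 to 5.63%). CD3-high members were also deeper, with a median of 3197 counts against 2516 in CD3-low members.

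As a class, CD3-high members had higher levels of γδ and αβ T cell transcripts and low levels of ILC2 genes. Trdc was counted in 7 of the 16 CD3-high Il17 cells, so the level of the class does not describe each cell. The comparison covered 3663 genes with at least 50 summed counts in members, of which 206 were 2-fold higher in CD3-high members (5.62%) and 528 lower (14.4%), with a median ratio of 0.967. Trdc stood at 8.87 and 0.423, a ratio of 21.0 (14.3 to 31.0), and 14.8 without its top cell. Blk had a ratio of 15.8 (8.71 to 29.0), Cd3g 6.10 (3.805 to 9.60), the TCRα constant gene Trac 5.50 (3.67 to 8.11), the T cell kinase gene Lck 5.89 and Pdcd1 5.36 (2.95 to 9.37). Igf2r (7.04) and Mmd (6.20) were the other genes among the 8 highest ratios. Of the γδ T cell list 4 of 6 were higher and 1 lower, and of the αβ T cell list 4 of 8 were higher (Trac, Trbc2, Lat and Lck).

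Of 13 ILC2 genes 9 were lower in CD3-high members (list median 0.152) and 1 was higher (Crlf2). Gata3 stood at 2.57 and 16.9, a ratio of 0.152 (0.0951 to 0.231), the IL-33 receptor gene Il1rl1 had a ratio of 0.0605 (0.00152 to 0.341), and Il13 0.0752 (0.00907 to 0.274). The stem cell factor receptor gene Kit stood at 0.350 and 4.42, a ratio of 0.0792 (0.0163 to 0.233). Genes at 0 counts in CD3-high members were led by Bmp2, a bone morphogenetic protein gene with 238 counts in CD3-low members, at least 6.39-fold lower. The adenosine receptor gene Adora2a was at least 2.26-fold lower. Cd200r1, Cd101, Chmp1a, Creb3l1, Adgrg3 and Asb2 were also at 0 counts in the CD3-high class.

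Gata3 and Kit were lower at each step of CD3 counts within members, and Trdc and Il5 had no such order. Gata3 was 17.4, 9.59, 3.06 and 2.004 in members with 0, 1, 2 and 3 or more CD3 counts (368, 23, 15 and 12 cells), and Kit was 4.55, 2.51, 0.437 and 0.251. Trdc was 0.382, 1.03, 13.8 and 3.26 across these steps, and Il5 was 13.2, 4.57, 3.06 and 17.8, highest in the 12 members with 3 or more CD3 counts. Il17 cells made up 42 of 368, 15 of 23, 10 of 15 and 6 of 12 of these members. CD3-high negative cells had Gata3 at 7.31, above the CD3-high members at 2.56 (ratio 0.351, 0.214 to 0.550), and Trdc at 3.21 against 8.86 (ratio 2.76, 1.96 to 3.89). In that comparison 1.38% of 1088 genes were 2-fold higher and 3.77% lower.

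With CD3-high cells left out of both sides, the receptors remained and most T cell receptor genes did not. Of 9590 genes 1.15% were 2-fold higher and 2.70% lower in CD3-low members over CD3-low negative cells, with a median ratio of 1.01. Il23r and Il1r1 were the 2 of 17 receptor and signal genes that were higher. Of the γδ T cell list 1 of 8 was higher (Trgc2), of the CD3 complex 0 of 3, and of the type 17 regulators 0 of 12. The CD3 limit caps Cd3d plus Cd3e in both classes, so the CD3 complex count depends partly on it. Il17 cells made up 57 of the 391 CD3-low members, and most of the others were Il22-only cells. In those 57 cells alone, 5 of 8 γδ T cell genes and 2 of 3 CD3 complex genes were higher. The counts for all CD3-low members are therefore not read as a loss of these genes from Il17 cells.

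Likeness to the cytokines across single cells was weak for every gene. Over the 4106 cells of this 1 library, the highest Pearson correlations with the summed cytokines on log-scaled values were 0.144 for Il23r, 0.109 for Il1r1, 0.0858 for Selenop and 0.0818 for Trgc1, among the genes reported here. With Il17a and Il17f alone they were 0.152 for Cd3e, 0.151 for Cd3d, 0.1498 for Blk, 0.143 for Trdc and 0.141 for Pdcd1. All pairs share the depth of the cell, and in counts this sparse such values describe the order of genes only.

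The dorsal libraries held Il17 transcripts but no Il22. Il22 had 0 counts in both, with exact 95% upper limits of 0.652% of cells on day 0 and 0.809% on day 10. Il17a was counted in 18 of 564 cells on day 0 (3.19%, 1.90 to 5.00%) and 19 of 454 on day 10 (4.19%, 2.54 to 6.46%), and Il17f in 16 (2.84%, 1.63 to 4.57%) and 6 (1.32%, 0.487 to 2.85%). The cytokine rule took 29 and 24 cells, and none was CD3-high. Il17a and Il17f shared 5 cells on day 0 and 1 cell on day 10. Each time point is 1 library, so day and library cannot be told apart. Iltifb, a near-identical copy of Il22, is listed in the skin table and was not matched in the dorsal tables, so reads could be divided differently between copies.

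Dorsal members had Gata3 at ratios whose intervals included 1, few or no counts of Il23r and Trdc, and ILC2 genes that went in either direction. Gata3 stood at 14.5 in members and 13.6 in negative cells on day 0, a ratio of 1.07 (0.859 to 1.31), and at 10.6 and 13.6 on day 10, a ratio of 0.777 (0.565 to 1.04). Il23r had 1 count in members on day 0 and 0 counts on day 10, and Trdc had 3 and 0. On day 0, where 4.79% of 3819 genes were 2-fold higher and 12.1% lower (median ratio 0.973), 1 of 14 ILC2 genes was higher (Il1rl1) and 3 were lower (Klrg1, Il5 and Ptgir), with a list median of 0.945. Il5 stood at 7.48 in members and 20.04 in negative cells, a ratio of 0.373 (0.276 to 0.494), while Klrg1, at 0.460 (0.0547 to 1.72), rested on 2 member counts. Scart1 had a ratio of 3.58 (1.75 to 6.76), and 2.17 without its top cell. Ramp1, a receptor subunit for the neuropeptide CGRP, had 3.09 (1.87 to 4.90), and 1.71 without its top cell. Il1rl1 was at 2.73 (1.73 to 4.15) with 22 of its 26 member counts in 1 cell, and at 0.435 without that cell. On day 10, where 4.44% of 3041 genes were higher and 15.8% lower (median ratio 0.944), 1 of 14 ILC2 genes was higher (Klrg1) and 2 were lower (Crlf2 and Ptgir), with a list median of 1.06. Klrg1 had a ratio of 2.69 (1.11 to 5.66) and Kit 2.11 (1.42 to 3.04, and 1.67 without its top cell), and Il1rl1, at 1.82 (1.25 to 2.58), stayed under 2-fold.

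The bulk libraries, which took no part in choosing the cells, varied widely in the 3 cytokines. Values here are CPM, counts scaled to the library's total, where fewer cells of a type and less RNA per cell cannot be told apart. Il17a in the intact pair was 0 and 24.8 CPM (fm_pos) against 53.2 and 0 CPM (fm_neg). In the Gata3flox pair it was 161, 33.3 and 6.90 CPM in reporter-positive and 7.89, 2.62 and 15.4 CPM in reporter-negative libraries. The groups of each pair overlapped. Il17f was 52.7 and 3.69 CPM against 0 and 2.23 CPM in the intact pair, and 356, 48.9 and 40.8 CPM against 6.68, 0.643 and 13.7 CPM in the Gata3flox pair. For Il17f the reporter-positive libraries were all above the reporter-negative ones in both pairs. The share of all genes without overlap was not counted. With so few libraries per group, a lack of overlap here and below is therefore a description of the values only. Il22 was 0 and 2.46 CPM against 0 in both libraries of the intact pair, and 3.06, 62.0 and 1.55 CPM against 0.0506, 0 and 0.300 CPM in the Gata3flox pair.

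None of the 3 passed the test in any bulk comparison. In edgeR's quasi-likelihood fit, with p-values adjusted by Benjamini-Hochberg over all genes, Il17f differed by 4.76 on the log2 scale between fm_pos and fm_neg (SE 1.98, adjusted p = 0.225) and by 4.42 between fm_pos_Gata3flox and fm_neg_Gata3flox (SE 1.52, adjusted p = 0.459). Il17a differed by -1.10 (SE 2.29, adjusted p = 0.899) and 2.96 (SE 1.99, adjusted p = 0.881). Il22 differed by 7.58 in the Gata3flox pair (SE 2.43, adjusted p = 0.421), with 1 library at 62.0 CPM far above the others. With fm_neg listed at 0, no fold is given for Il22 in the intact pair. DESeq2 called Il22 in the Gata3flox pair (adjusted p = 0.00864).

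**Figure D5:**
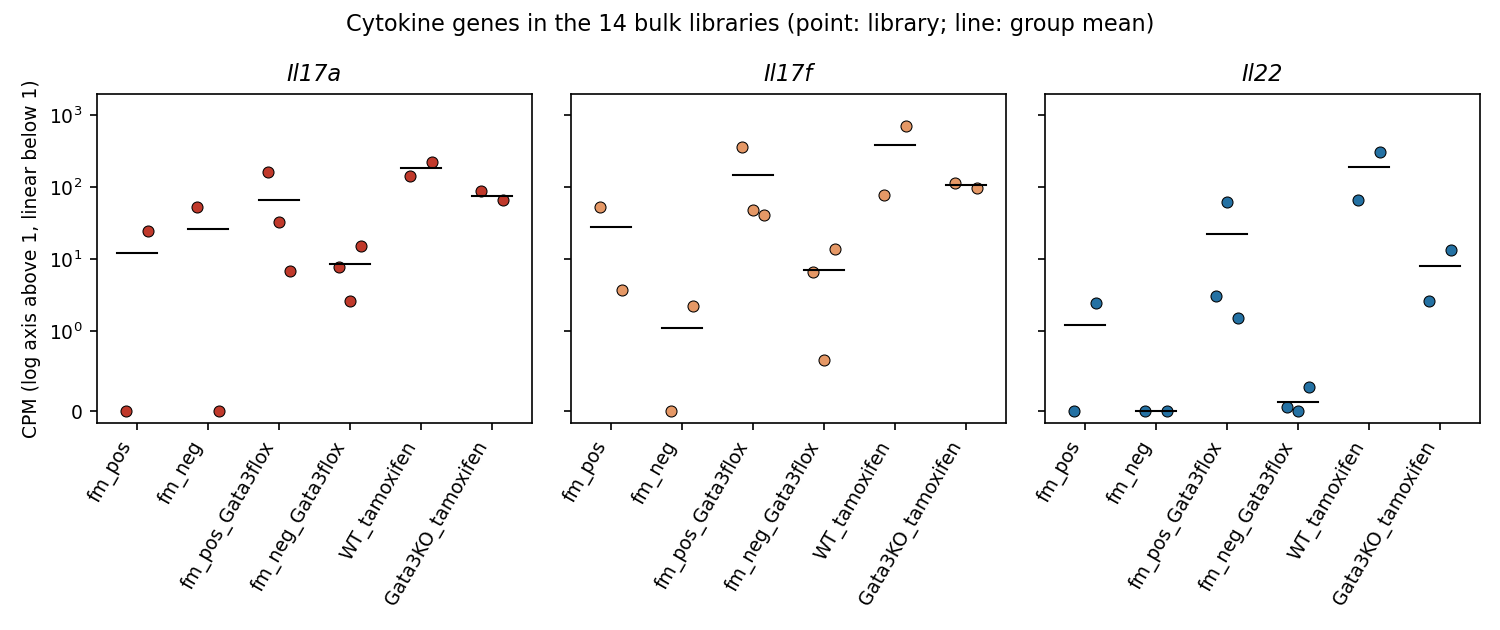
CPM of Il17a, Il17f and Il22 in each of the 14 bulk libraries (y axis, log scale), by group. Il17f in the 3 fm_pos_Gata3flox libraries lies at 40.8 to 356 CPM, above the 3 fm_neg_Gata3flox libraries at 0.643 to 13.7 CPM.

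After tamoxifen, Il22 was 66.7 and 311 CPM in WT and 2.66 and 13.5 CPM in Gata3KO, groups that did not overlap, with a log2 difference of -4.57 (SE 1.14, edgeR adjusted p = 0.585). DESeq2 called this difference (adjusted p = 3e-06). Il17a was 142 and 224 CPM in WT and 87.7 and 65.5 in Gata3KO, again without overlap (log2 difference -1.26, SE 0.32, edgeR adjusted p = 0.585, and DESeq2 adjusted p = 0.0296). Il17f was 77.6 and 702 CPM in WT and 114 and 98.9 in Gata3KO, which overlapped (log2 difference -1.88, SE 0.97, edgeR adjusted p = 0.899). The targeted gene, Gata3, did not separate the libraries labelled Gata3flox from the intact ones, at 154, 235 and 307 CPM in fm_pos_Gata3flox beside 164 and 303 CPM in fm_pos, and at 264, 430 and 442 CPM in fm_neg_Gata3flox beside 380.5 and 504 CPM in fm_neg. After tamoxifen it was 381 and 581 CPM in WT and 299 and 314 CPM in Gata3KO, a log2 difference of -0.65 (edgeR adjusted p = 0.742). The deleted part of Gata3 is not given in the sources used here, and whole-gene counts need not show it, so the labels of these groups are used as given and were not checked by this gene. In this comparison edgeR called 0 of 13272 genes (914 at an unadjusted p under 0.05), and DESeq2 called 235.

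The 67 genes named from the single cells, some of them lower in members or with ratios near 1, were then read in bulk. Of these, 61 were tested in the intact fate-map pair, where 2.74% of 17456 genes were called (0.624% higher and 2.11% lower), and 9 of the 61 were called. The T cell signalling adaptor Lat, Trbc2, Tmem176b and Cd40lg, the ligand of CD40, rose in fm_pos, and Cd200r1, Hspb1, Il4, Mt1 and Serpinb2 fell. In the Gata3flox pair, where 0.361% of all genes were called (0.126% higher and 0.235% lower), 5 of 61 were called. There Tmem176b and Pdcd1 rose and Cd200r1, Il4 and Cd40lg fell. After tamoxifen 0 of 58 were called by edgeR, against 0% of all genes. The median log2 difference of the named genes was -0.14, -0.36 and -0.16 in these 3 comparisons, beside 0, 0 and -0.03 for all genes tested.

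Tmem176b, Cd200r1 and Il4 were called in the same direction in both fate-map pairs. Tmem176b was 518 and 411 CPM in fm_pos against 168 and 218 in fm_neg (log2 difference 1.27, SE 0.20, edgeR adjusted p = 0.0151), and 699, 685 and 572 against 172, 137 and 156 in the Gata3flox pair (2.07, SE 0.17, adjusted p = 0.00337). The inhibitory receptor gene Cd200r1 was 25.4 and 48.3 against 195 and 154 CPM (-2.24, SE 0.30, adjusted p = 0.0061), and 59.2, 68.9 and 67.1 against 233, 286 and 295 (-2.06, SE 0.24, adjusted p = 0.00996). Il4 was 6.95 and 4.84 against 77.7 and 42.9 CPM (-3.36, SE 0.40, adjusted p = 0.00322), and 8.996, 10.2 and 10.5 against 73.2, 89.5 and 126 (-3.28, SE 0.33, adjusted p = 0.00642). None of these groups overlapped. Leaving out single libraries kept the calls of Tmem176b in the Gata3flox pair and of Cd200r1 and Il4 in the intact pair, but Tmem176b was lost in the intact pair without fm_neg replicate 1. In the Gata3flox pair Il4 was lost without fm_pos_Gata3flox replicate 2, and Cd200r1 without any 1 library other than fm_neg_Gata3flox replicate 1. Pdcd1 and Cd40lg were lost there whichever library was left out. In the intact pair Lat, Trbc2, Cd40lg, Hspb1 and Serpinb2 were lost without fm_pos replicate 1 and without fm_neg replicate 1, Serpinb2 also without fm_pos replicate 2, and Lat and Cd40lg also without fm_neg replicate 2. With the intact pair fitted alone, Mt1 was the 1 of the 9 that was still called. With the sequencing lane as a covariate, Cd40lg, Hspb1, Lat, Serpinb2 and Trbc2 were lost in the intact pair, and Cd200r1, Cd40lg and Pdcd1 in the Gata3flox pair. All fm_pos and fm_pos_Gata3flox libraries were on lane L2, whereas fm_neg replicate 2 and fm_neg_Gata3flox replicates 1 and 3 were on L1. Lane and reporter were thus partly confounded and cannot be fully told apart.

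Il23r and Blk did not pass the test in either fate-map pair, although every reporter-positive library lay above every reporter-negative library of its pair. Il23r was 81.9 and 60.3 CPM in fm_pos against 0 and 12.7 in fm_neg (log2 difference 3.50, SE 1.75, edgeR adjusted p = 0.295), and 60.2, 21.5 and 12.5 against 0.911, 0 and 0.420 in the Gata3flox pair (6.14, SE 1.68, adjusted p = 0.254). The groups did not overlap in either pair. The same held for other uncalled genes, such as Creb3l1 and Timp3, so it does not set Il23r or Blk apart. Blk was 21.05 ± 8.56 CPM (SD, n = 2) in fm_pos against 0 and 4.94 CPM in fm_neg (3.10, adjusted p = 0.496), and 46.9, 10.5 and 1.62 against 1.06, 0 and 0 (5.77, adjusted p = 0.53). After tamoxifen Il23r was 63.3 and 103 CPM in WT and 225 and 244 in Gata3KO (1.497, adjusted p = 0.585). Trdc overlapped in both fate-map pairs, at 25.3 to 28.3 CPM in fm_pos and 26.4 to 27.8 CPM in fm_neg.

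Markers of other skin cells moved with the intact fate-map pair. Summed CPM of 9 fibroblast genes was 179 to 300 in fm_pos and 8005 to 10260 in fm_neg, with 4 of 9 called lower (Col3a1, Dcn, Gsn and Sparc). Summed CPM of 12 keratinocyte genes was 374 to 469 in fm_pos and 2676 to 4726 in fm_neg, with 6 of 12 called lower. Of all genes tested in this pair, 2.11% were called lower. In the Gata3flox pair the fibroblast sums were 162 to 402 and 520 to 1250 CPM, with 0 of 9 called. There only 0.361% of all genes were called, so 0 of 9 is not read as a lack of difference. The CD3 complex genes summed to 318 to 1063 CPM in fm_pos and 642 to 673 CPM in fm_neg, so CD3 transcripts were present in both groups. Cd3g was the largest part, at 206 to 813 CPM over both groups, beside Cd3e at 11.2 to 62.3 CPM. In the skin library Cd3g was also counted in 301 CD3-low negative cells. On the single-cell scale used above, its level was 0.431 in that class and 5.38 in CD3-high negative cells. The CD3-low label rests on counts of Cd3d and Cd3e alone, and which cells gave the bulk sum was not tested. The part of these markers in the differences above was not tested.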

How the data were processed

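All tables hold raw counts deposited by the authors, with reads aligned by HISAT2 2.1.0 to mm10 and counted by featureCounts (Subread), per the submitters' processing notes. The platform, cell calling and use of molecular identifiers in the single-cell libraries are not given in the sources used here, so intervals cover counting error only. The dorsal tables list 0 mitochondrial genes, and only the skin library was filtered on them. The members and the gene lists were chosen with earlier results of these data known.

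Single cells (scanpy 1.11.5, Python 3.11.15) were clustered with 2000 variable genes, 30 components, 15 neighbours and Leiden resolution 0.5, without the 3 cytokines, Cd3d and Cd3e. Class ratios come from summed counts per 10000, without the cytokines (and without Cd3d and Cd3e in the CD3 split for other genes), with exact conditional binomial 95% intervals. A gene counted as 2-fold higher or lower when the ratio reached 2 or 0.5, and genes named for their ratio also had an interval that excluded 1. Shares have exact Clopper-Pearson intervals, and thinning drew 1000 counts per cell, leaving out 168 shallower cells. With 1 library per condition no test was run on cells.

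Bulk counts were fitted with edgeR 4.0.16 (R 4.3.3, TMM, filterByExpr, quasi-likelihood test, Benjamini-Hochberg, threshold 0.05). The 10 fate-map libraries shared 1 fit of 17456 genes and the 4 tamoxifen libraries another of 13272. Tables listed 54446 genes, 54409 with a symbol. In simulated data, 4-fold changes were recovered at 41% (intact pair, 16427 genes), 49.5% (Gata3flox pair, 16473 genes) and 16% (tamoxifen pair, 12134 genes) of 200 changed genes.

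Named genes were the 3 cytokines, Cd3d, Cd3e, Gata3, the 12 highest and 12 lowest ratios of members over negative cells, the 8 highest and 8 lowest of the CD3 split, the 3 members of each type 17, ILC2 and cytokine list farthest from 1, all counted members of the CD3, γδ and αβ T cell lists, and the 5 genes most correlated with the cytokines. Some genes that this rule takes are not reported here. Il5, Il13, Il1rl1, Kit, Lyz2, Csf1r, C1qb and Ramp1, and the values within and outside cluster 4, were chosen after their values were seen. Alternatives were thinning, a stricter cell filter, other cytokine and CD3 limits, per-cell means, no low-count filter, DESeq2 1.42.0, each library left out, a replicate block, the lane in the sample headers as a covariate, and each pair fitted alone.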

Additional observations from a re-analysis of the deposited data

Results flagged for a closer look

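The fate-map difference was compared between the Gata3flox and the intact libraries in a test added after the data were seen, as a contrast of contrasts in the edgeR fit with Benjamini-Hochberg adjustment. It called 176 of 17456 genes (1.01%), among them 3 of the genes named from the cytokine-positive cells. Cd40lg, the ligand of CD40, was 155 and 27.9 CPM in fm_pos against 9.32 and 8.34 CPM in fm_neg, and 0.679, 1.19 and 1.23 against 15.3, 16.9 and 19.4 CPM in the Gata3flox pair, so that the log2 difference changed by -7.41 (edgeR adjusted p = 0.00856). The checkpoint receptor gene Pdcd1 was 67.9 and 98.8 against 92.0 and 166 CPM in the intact pair, and 128, 104 and 205 against 45.3, 36.2 and 36.8 CPM in the Gata3flox pair, a change of 2.51 (edgeR adjusted p = 0.0461). The metallothionein gene Mt1 was 26.3 and 31.5 against 729 and 641 CPM, and 95.3, 95.8 and 29.1 against 110, 156 and 105 CPM, a change of 3.81 (edgeR adjusted p = 0.0271). For Mt1 the intact pair is also the one in which summed fibroblast genes reached 8005 to 10260 CPM in fm_neg, and the part of those cells in the difference was not tested. Cd40lg and Pdcd1 were lost from the calls of the Gata3flox pair whichever library was left out.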

How the results depend on the processing

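The share of members was 4.95% thinned to 1000 counts, 11.2% with at least 500 genes and under 5% mitochondrial counts, and 2.19% at 2 or more cytokine counts. CD3-high cells among members made up 2.05% thinned, 13.3% at 2 or more cytokine counts, 11.96% at a CD3 sum of 1 or more and 2.87% at 3 or more. Among negative cells they made up 0.989% thinned, 2.72% with the stricter cell filter, 5.53% at 1 or more and 1.14% at 3 or more. Genes past 2-fold between members and negative cells (main count 105) numbered 306 thinned, 891 at 2 or more cytokine counts, 163 as a mean of per-cell values, 352 with at least 50 summed counts and 1443 for Il17 cells only. Within CD3-low cells they numbered 295 thinned and 982 at 2 or more cytokine counts, and the CD3 split gave 251 thinned. Ratios that turned below 1 were, thinned, Timp3 (0), Pou2f2 (0.527) and Ms4a6c (0.641), and, for Il17 cells only, Timp3 (0.760), Il4 (0), Pou2f2 (0.571), Ms4a6c (0) and Cybb (0.272). Trdc was 0.902 for Il22-positive cells only. Without the macrophage-gene cluster Pou2f2 was 0.685, Ms4a6c 0 and Cybb 0.254. In the CD3 split Blk, Mmd and Pdcd1 were 0 when thinned, where 4 CD3-high members remained.

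In bulk, the intact pair gave 478 genes, and 2620 by DESeq2, 1324 without the low-count filter, 126 with the replicate block, 29 with both groups alone, 250 with the lane as a covariate and 514 to 877 with 1 library left out (the lone library of a pair is then assumed to vary like the other groups). The Gata3flox pair gave 63 genes, and 535, 321, 31, 233 and 10 under the same settings, and 2 to 27 with 1 library left out. The tamoxifen pair gave 0 genes, 235 by DESeq2, 6 without the filter, 0 with the replicate block and 0 with 1 library left out. Log2 differences that changed sign with 1 library left out are given as their lowest and highest values. Il17a in the intact pair ran from -12.35 (without fm_pos replicate 2) to 11.36 (without fm_neg replicate 1), and Hspb1 in the Gata3flox pair from -0.406 to 0.084 (without fm_pos_Gata3flox replicate 2 and 1). After tamoxifen Il17f ran from -2.73 to 0.46 and Pdcd1 from -0.51 to 0.22 (without WT replicate 1 and 2), and Serpinb2 from -6.40 to 0.64 (without Gata3KO replicate 2 and 1). Il22 gave no value in the intact pair without fm_pos replicate 2, where all counts were 0, or with both groups alone. Lane was not run for tamoxifen, where Gata3KO replicate 1 was on lane L4 and the other libraries were on L1. Libraries with the same number shared little beyond it. Correlations of their deviations were -0.00444 in the intact pair, 0.0146 to 0.128 in the Gata3flox pair and 0.0107 after tamoxifen, so the block was not used. With it, Cd40lg, Hspb1, Lat, Tmem176b and Trbc2 lost their calls in the intact pair, and Cd200r1, Cd40lg and Pdcd1 in the Gata3flox pair. Where no cause is named, the cause was not tested.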
